A study of Mus musculus with 52 samples.

Results

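Mouse cell aggregates were grown for 1 day in a medium called 4C-64C, either with or without 8Br-cAMP, and their messenger RNA was sequenced. The part of the series described here is the stage named S2, and its members are 4 of the 52 libraries. In 2 libraries (S2 without 8Br-cAMP) aggregates of S1 cells had been kept in the medium from which 8Br-cAMP was left out, and in 2 libraries (S2 in full medium) aggregates of S1 cells had been kept in the complete medium. The libraries were chosen by their labels and by no measured value. All came from the line mc6-1/Mu-mClover3-10# with the genotype WT. S1 cells are mouse extended pluripotent stem cells (EPSCs) that had been treated with a totipotency medium, so both groups share that earlier treatment. The other S2 groups name 3 more agents of the medium, Birabresib (a BET bromodomain inhibitor), CHIR-99021 (an inhibitor of the kinase GSK3 that activates Wnt signalling) and CD1530 (which activates the gamma form of the retinoic acid receptor). These 3 agents were present in both groups of the main comparison. The sources used here give neither the rest of the recipe nor the doses nor whether the line is a single clone. Separate cultures for the 2 libraries of each group are not stated either. The p-values rest on the spread between libraries of the same group, pooled over all 26 groups of the series. That spread may be technical.

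8Br-cAMP is an analog of cyclic AMP that enters cells and resists breakdown. Cyclic AMP binds the regulatory subunits of protein kinase A (PKA), which frees the catalytic subunits, and it also binds the exchange factors EPAC1 and EPAC2. PKA phosphorylates the transcription factor CREB, which binds the cAMP response element (CRE) in promoters such as those of immediate early genes. Cells answer a rise in cAMP by making phosphodiesterases (PDEs), which break it down, and kinases of the SIK family, which hold back the coactivators of CREB, so that the signal limits itself. In early embryos and stem cells this pathway meets those of Wnt, retinoic acid and FGF. Leaving out 8Br-cAMP asks which transcripts of the aggregates depend on the analog when the other agents stay.

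The libraries without 8Br-cAMP held 28899605 and 49809504 counts, and those in full medium held 35753691 and 36888165. Levels are given in CPM, the counts of a gene per fixed total of counts in its library after TMM scaling, a scale on which the values of 1 gene can be set side by side between libraries. A gene was called, and is said to have risen or fallen, at an adjusted p below 0.05 in the quasi-likelihood test of edgeR with a log2 fold change of at least 1 in size. The SD of the log2 difference between the 2 libraries was 0.153 without 8Br-cAMP and 0.145 in full medium, so the libraries of a group lay close together. Mitochondrial genes took 2.93% and 2.74% of the counts without 8Br-cAMP and 3.14% and 2.86% in full medium.

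Leaving out 8Br-cAMP lowered more transcripts than it raised. Of 25056 genes tested, 481 were called (1.92%): 161 rose, which is 0.643% of all genes tested, and 320 fell, which is 1.28%. Among protein-coding genes 117 rose and 292 fell. Among genes at 5 CPM or more, predicted genes left out, the largest fall was in Bcl2, the founding member of the proteins that hold back cell death, and the rises included Lef1, a transcription factor of the Wnt pathway, and Dnmt3l, a cofactor of DNA methylation. In 15 of the risen genes no read was counted in full medium and in 21 of the fallen genes none was counted without 8Br-cAMP, so their fitted folds depend on the prior count and are not given. Bulk RNA cannot tell fewer cells that express a gene from less RNA of that gene in each cell.

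**Figure D1:**
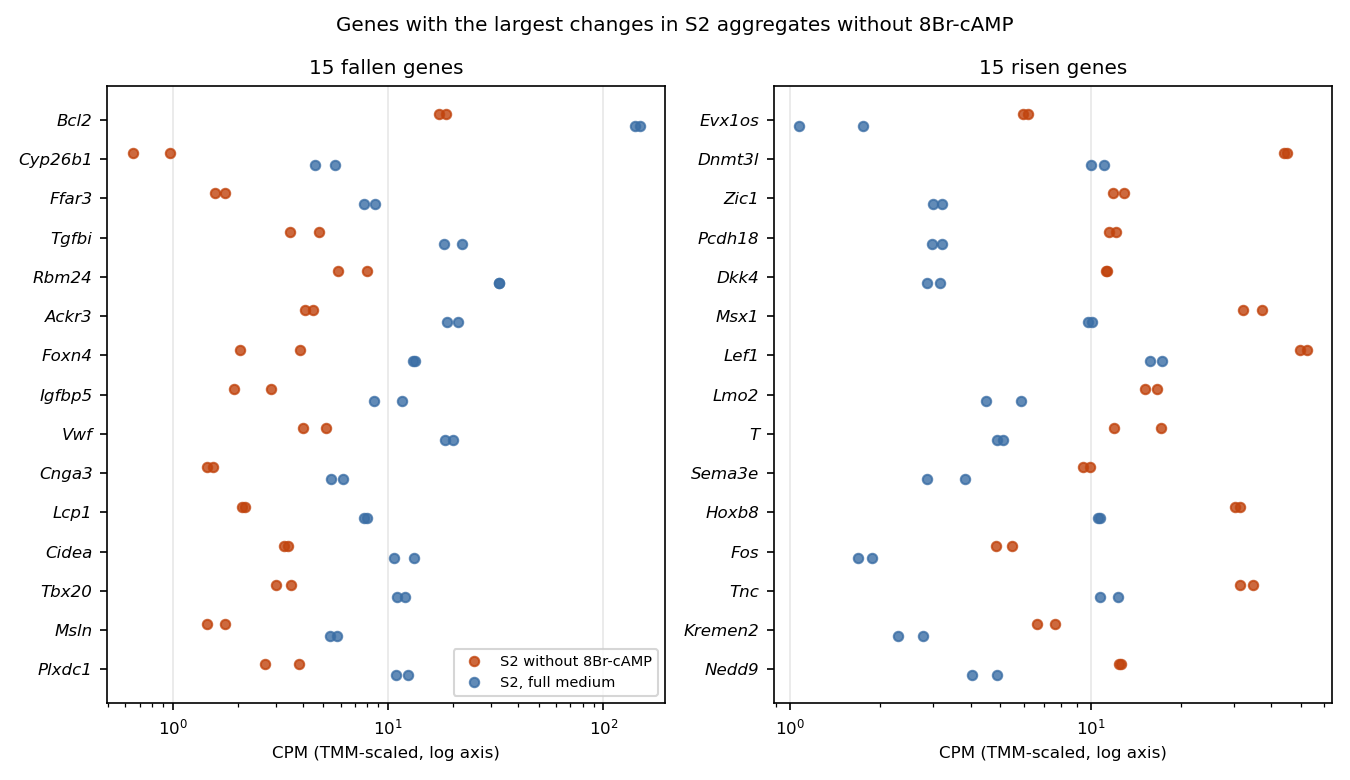
Levels of the 15 fallen (left) and 15 risen (right) genes with the largest log2 fold change among called genes whose mean reached 5 CPM in either group, predicted genes left out. Each point is 1 library, the horizontal axis is CPM on a log scale, orange marks S2 without 8Br-cAMP and blue marks S2 in full medium. The genes were chosen for their difference between these libraries, so the gap between the groups is a description; Bcl2 stands at 17.2 and 18.6 CPM without 8Br-cAMP, against 140.1 and 148 CPM in full medium.

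Of the 37 genes on a list of known cAMP and CREB responders, 32 were tested, 5 fell and 2 rose. Beside this and every list below, 1.28% of all genes tested fell and 0.643% rose. The other 5 (Crh, Sst, Vip, Cga and Scg2) had too few counts to be tested. The median log2 fold change of the 32 was −0.03, against 0.00 over all genes tested. The genes that fell were an orphan nuclear receptor, a kinase of the SIK family and 3 phosphodiesterases.

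Nr4a1, the orphan nuclear receptor NUR77 and an immediate early gene in many cells, stood at 30.8 and 32.3 CPM without 8Br-cAMP, against 85.6 and 96.1 CPM in full medium (−1.52, SE 0.15, adjusted p = 2.58e-09). Sik1, the salt-inducible kinase that dampens CREB coactivators, stood at 40.1 and 41.7 CPM without 8Br-cAMP, against 98.4 and 104 CPM in full medium (−1.31, SE 0.19, adjusted p = 6.47e-06). Both groups were apart in each gene, with every library without 8Br-cAMP at less than the level of either library in full medium. All 320 fallen and all 161 risen genes were apart in this way. Such a gap, here or below, therefore adds no support to a call. Pde4d, a phosphodiesterase specific for cAMP, stood at 11.6 and 11.5 CPM without 8Br-cAMP, against 34.1 and 30.5 CPM in full medium (−1.48, SE 0.13, adjusted p = 4.51e-10). Pde10a, which breaks down cAMP and cGMP, stood at 6.86 and 8.51 CPM without 8Br-cAMP, against 18.5 and 18.7 CPM in full medium (−1.26, SE 0.17, adjusted p = 2.06e-06). Both enzymes were lower in each library without 8Br-cAMP. Pde4b fell as well but was scarce, at 0.205 and 0.0803 CPM without 8Br-cAMP, against 0.401 and 0.825 CPM in full medium (−2.22, SE 0.62, adjusted p = 0.0238). Pde4b was not called without library 2 of S2 in full medium (−1.617, adjusted p = 0.341) or library 2 of S2 without 8Br-cAMP (−1.583, adjusted p = 0.359). It was also lost with counts halved (adjusted p = 0.0565), with the newer quasi-likelihood fit (0.0981) and with the 4 libraries fitted alone (0.0525).

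The other responders did not fall together. Fos, the AP-1 subunit that is a textbook CREB target, rose, at 5.46 and 4.84 CPM without 8Br-cAMP, against 1.69 and 1.87 CPM in full medium (1.53, SE 0.30, adjusted p = 0.000792). Bdnf, which encodes a neurotrophin, rose too, at 1.71 and 3.47 CPM without 8Br-cAMP, against 1.03 and 1.10 CPM in full medium (1.31, SE 0.31, adjusted p = 0.00478). Egr1, a zinc finger factor induced by growth factors, stood at 44.1 and 43.8 CPM without 8Br-cAMP, against 22.1 and 22.5 CPM in full medium and passed the adjusted p but not the fold threshold (0.98, SE 0.21, adjusted p = 0.0025), which it did pass with RLE factors and in DESeq2. The adjusted p alone was also passed, downward, by Dusp1, the phosphatase that switches off MAP kinases, at 27.4 and 22.6 CPM without 8Br-cAMP, against 45.2 and 44.2 CPM in full medium (−0.84, SE 0.12, adjusted p = 6.8e-06), and by Fst, the activin antagonist follistatin, at 6.49 and 8.29 CPM without 8Br-cAMP, against 13.9 and 11.0 CPM in full medium (−0.74, SE 0.17, adjusted p = 0.00481). Crem, the CREB relative whose short form represses CRE promoters, stood at 12.7 and 13.7 CPM without 8Br-cAMP, against 12.3 and 14.0 CPM in full medium (0.01 ± 0.19, log2 fold change ± SE). Btg2, an antiproliferative gene, stood at 92.8 and 100 CPM without 8Br-cAMP, against 96.8 and 96.9 CPM in full medium (−0.01 ± 0.10), and Per1, a clock gene, at 17.1 and 16.1 CPM without 8Br-cAMP, against 17.9 and 17.4 CPM in full medium (−0.08 ± 0.21). None of these 3 passed. Bdnf was not called without library 1 of S2 in full medium (1.256, adjusted p = 0.0754), library 2 of S2 in full medium (1.351, adjusted p = 0.0504) or library 2 of S2 without 8Br-cAMP (0.667, adjusted p = 0.449).

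**Figure D2:**
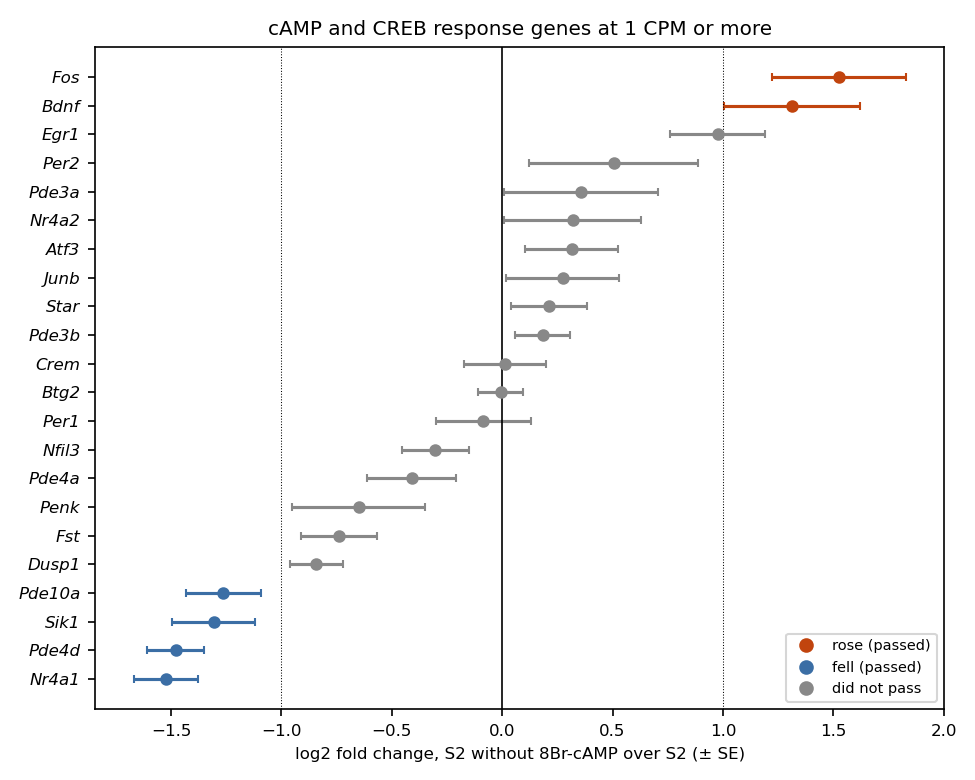
Log2 fold change, S2 without 8Br-cAMP over S2, with its SE, for the 22 tested members of the cAMP and CREB response list that reached 1 CPM in a group. Blue points fell and orange points rose, grey points did not pass, and the dotted lines mark the fold threshold; the values run from −1.52 for Nr4a1 to 1.53 for Fos.

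The CRE itself can be read in 5 promoters. They are the 250 bases before the RefSeq start on GRCm38.p6, printed 5′ to 3′ on the strand of the gene. Capitals mark the full CRE, TGACGTCA, or the short site, TGACG or its complement CGTCA, that is not part of a full one. Nr4a1 and Fos are shown because they are classical responders that moved in opposite directions, Bcl2 because it fell most among genes at 5 CPM or more, predicted genes left out, and Ffar3 and Btg2 because both hold the full CRE while only Ffar3 fell.
Nr4a1 (chr15:101266596-101266845, plus strand): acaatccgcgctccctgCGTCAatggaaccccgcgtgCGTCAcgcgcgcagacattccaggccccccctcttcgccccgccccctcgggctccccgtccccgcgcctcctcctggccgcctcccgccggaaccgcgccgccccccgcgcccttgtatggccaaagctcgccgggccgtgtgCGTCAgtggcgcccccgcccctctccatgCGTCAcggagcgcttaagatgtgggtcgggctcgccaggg
Fos (chr12:85473640-85473889, plus strand): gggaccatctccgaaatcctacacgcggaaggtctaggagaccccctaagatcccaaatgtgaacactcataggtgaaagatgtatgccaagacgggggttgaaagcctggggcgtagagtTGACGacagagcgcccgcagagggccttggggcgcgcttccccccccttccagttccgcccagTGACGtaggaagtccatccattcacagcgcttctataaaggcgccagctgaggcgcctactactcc
Bcl2 (chr1:106714291-106714540, minus strand): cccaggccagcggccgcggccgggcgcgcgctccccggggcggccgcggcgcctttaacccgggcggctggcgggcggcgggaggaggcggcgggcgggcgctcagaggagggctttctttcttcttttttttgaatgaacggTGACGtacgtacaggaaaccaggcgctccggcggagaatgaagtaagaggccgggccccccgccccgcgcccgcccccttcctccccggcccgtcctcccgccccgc
Ffar3 (chr7:30856179-30856428, minus strand): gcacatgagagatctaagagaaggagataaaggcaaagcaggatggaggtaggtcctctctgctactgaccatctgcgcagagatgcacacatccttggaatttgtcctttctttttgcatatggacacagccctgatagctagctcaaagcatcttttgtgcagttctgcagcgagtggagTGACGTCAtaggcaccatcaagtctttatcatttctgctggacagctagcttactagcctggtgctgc
Btg2 (chr1:134079156-134079405, minus strand): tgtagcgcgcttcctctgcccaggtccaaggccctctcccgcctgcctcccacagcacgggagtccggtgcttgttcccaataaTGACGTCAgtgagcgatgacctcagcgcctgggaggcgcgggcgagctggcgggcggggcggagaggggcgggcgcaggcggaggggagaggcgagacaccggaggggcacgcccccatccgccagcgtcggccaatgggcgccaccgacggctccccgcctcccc
Nr4a1 held 4 short sites and no full site, Fos held 2 short sites and Bcl2 held 1. The full CRE began 68 bases before the start in Ffar3 and 166 bases before it in Btg2. Over the genes with a promoter in the table, the full CRE was found in 9 of 231 fallen genes (3.9%, of 320 fallen), in 1 of 96 risen genes (1.04%, of 161 risen), in 393 of 15049 genes tested (2.61%) and in 478 of all 27025 (1.77%). With the short site also allowed the shares were 21.65% of fallen, 15.62% of risen, 26.37% of tested and 19.79% of all genes. A match is only a match of letters in this window, and no match says nothing of sites outside it.

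Among 48 tested genes that make, sense or break down cAMP, 2 fell and none rose, where 1.28% of all genes tested fell. Pde8a, a phosphodiesterase with high affinity for cAMP, stood at 17.1 and 17.6 CPM without 8Br-cAMP, against 53.1 and 53.9 CPM in full medium (−1.62, SE 0.14, adjusted p = 1.05e-10). Rapgef3, which encodes EPAC1, stood at 3.35 and 3.75 CPM without 8Br-cAMP, against 7.16 and 9.46 CPM in full medium (−1.22, SE 0.24, adjusted p = 0.000659). In both genes the groups were apart. Core parts of the pathway did not pass: the catalytic subunit gene Prkaca stood at 97.7 and 94.1 CPM without 8Br-cAMP, against 92.5 and 91.9 CPM in full medium (0.06 ± 0.09), and the regulatory subunit gene Prkar1a at 182 and 180.0 CPM without 8Br-cAMP, against 211 and 200.3 CPM in full medium (−0.18 ± 0.07). Creb1 stood at 98.1 and 107 CPM without 8Br-cAMP, against 89.5 and 91.0 CPM in full medium (0.18 ± 0.14). The median of this list was −0.03.

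The 15 genes that fell most among those at 5 CPM or more had log2 fold changes from −3.01 (Bcl2) to −1.82 (Plxdc1). Bcl2 (chr1:106538178-106714274, minus strand) stood at 17.2 and 18.6 CPM without 8Br-cAMP, against 140.1 and 148 CPM in full medium, which the fit gives as 8.03-fold lower (−3.01, SE 0.15, adjusted p = 5.22e-17). In the other 3 S2 media it stood at 143 and 180.3 CPM without Birabresib, 155 and 176 CPM without CHIR-99021 and 101 and 110.3 CPM without CD1530. The 2 libraries without 8Br-cAMP were the lowest of the 10 S2 libraries by a wide margin. On a list of 18 survival and death genes Bcl2 was the only one called, and the median of that list was −0.002.

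Several of the other steep falls were in receptors, channels and secreted proteins. Ffar3, a G-protein-coupled receptor for short-chain fatty acids whose promoter is printed above, stood at 1.74 and 1.57 CPM without 8Br-cAMP, against 8.70 and 7.68 CPM in full medium (−2.31, SE 0.30, adjusted p = 9.15e-07). Ackr3, the scavenging receptor for the chemokine CXCL12, stood at 4.10 and 4.46 CPM without 8Br-cAMP, against 21.0 and 18.8 CPM in full medium (−2.21, SE 0.16, adjusted p = 5.85e-12). Cnga3, a subunit of the cyclic-nucleotide-gated channel of cone photoreceptors, stood at 1.43 and 1.53 CPM without 8Br-cAMP, against 6.16 and 5.39 CPM in full medium (−1.96, SE 0.25, adjusted p = 9.05e-07). Each of these was lowest in the 2 libraries without 8Br-cAMP, except that for Ffar3 the libraries without CD1530 came close, at 1.86 and 2.12 CPM. Tgfbi, an extracellular matrix protein induced by TGF-beta, stood at 3.48 and 4.76 CPM without 8Br-cAMP, against 21.9 and 18.2 CPM in full medium (−2.27, SE 0.20, adjusted p = 6.71e-10). Igfbp5, which binds insulin-like growth factors, stood at 2.87 and 1.93 CPM without 8Br-cAMP, against 11.6 and 8.56 CPM in full medium (−2.10, SE 0.26, adjusted p = 3.95e-07). Both were below the level of every other S2 library.

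Regulators of transcription and splicing were among them as well. Tbx20, a T-box factor of heart development, stood at 3.52 and 3.01 CPM without 8Br-cAMP, against 11.9 and 11.0 CPM in full medium (−1.82, SE 0.22, adjusted p = 2.96e-07). Foxn4, a forkhead factor of retinal and spinal progenitors, stood at 2.05 and 3.89 CPM without 8Br-cAMP, against 13.1 and 13.3 CPM in full medium (−2.12, SE 0.37, adjusted p = 0.000129), with a wide gap between the 2 libraries without the analog. Rbm24, a splicing regulator of muscle, stood at 5.87 and 7.97 CPM without 8Br-cAMP, against 32.8 and 32.8 CPM in full medium (−2.23, SE 0.21, adjusted p = 2.11e-09). For Foxn4 and Rbm24 the libraries without CD1530 were as low or lower, at 1.16 and 1.27 CPM and at 6.14 and 5.65 CPM. The remaining fallen genes of this group were Cyp26b1, Vwf, Lcp1, Cidea, Msln and Plxdc1, with log2 fold changes from −2.62 to −1.82. Both libraries without 8Br-cAMP lay below all of the other 8 S2 libraries in 10 of these 15 genes and in 211 of all 320 fallen genes. Of all genes tested 5.3% showed this order, but fallen genes were chosen against 2 of those 8 libraries, so nothing is read from the excess.

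Effectors and inhibitors of Wnt signalling were among the genes that rose. Lef1 (chr3:131110471-131224356, plus strand) stood at 52.4 and 49.9 CPM without 8Br-cAMP, against 15.8 and 17.4 CPM in full medium, a 3.08-fold higher level (1.62, SE 0.12, adjusted p = 3.89e-12). Of the exonic bases of Lef1, 13.7% lie in another gene. T, which encodes brachyury, the T-box factor of the primitive streak, stood at 12.0 and 17.1 CPM without 8Br-cAMP, against 5.10 and 4.90 CPM in full medium (1.55, SE 0.23, adjusted p = 9.21e-06). Dkk4, a secreted Wnt antagonist, stood at 11.2 and 11.4 CPM without 8Br-cAMP, against 2.86 and 3.16 CPM in full medium (1.91, SE 0.42, adjusted p = 0.00304), and Kremen2, a receptor for Dkk proteins, at 7.65 and 6.64 CPM without 8Br-cAMP, against 2.78 and 2.28 CPM in full medium (1.49, SE 0.25, adjusted p = 9.71e-05). In all 4 genes the groups were apart. Dkk4 was not called without library 1 of S2 in full medium (1.823, adjusted p = 0.0637).

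Of 19 Wnt target genes, all of which were tested, 3 rose (Lef1, Nkd1 and T) and none fell, with a median log2 fold change of 0.41, against 0.00 over all genes tested. At any fold, 9 of the 19 passed the adjusted p upward and none downward, where 1.64% of all genes tested passed upward. Nkd1, which feeds back on Wnt signalling, stood at 84.9 and 78.3 CPM without 8Br-cAMP, against 31.7 and 35.1 CPM in full medium (1.29, SE 0.18, adjusted p = 2.77e-06). Sp5, a direct target of beta-catenin, stood at 181 and 182 CPM without 8Br-cAMP, against 89.2 and 93.5 CPM in full medium and passed only the adjusted p (0.99, SE 0.16, adjusted p = 4.69e-05), though it was called with RLE factors, in DESeq2, in both fits to fewer libraries and without library 2 of full medium (1.015). Cdx2, the caudal factor that serves both the posterior axis and the trophectoderm, stood at 43.5 and 46.2 CPM without 8Br-cAMP, against 21.6 and 23.2 CPM in full medium and missed the fold threshold narrowly (1.00, SE 0.28, adjusted p = 0.0256); it was called with RLE factors, in DESeq2, with the newer quasi-likelihood fit and in both fits to fewer libraries. Axin2, the best-known Wnt feedback gene, stood at 442 and 435 CPM without 8Br-cAMP, against 305 and 335 CPM in full medium (0.45, SE 0.15, adjusted p = 0.0675) and did not pass.

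Homeobox and zinc finger genes of patterning were also among the rises. Hoxb8 stood at 31.4 and 30.2 CPM without 8Br-cAMP, against 10.6 and 10.7 CPM in full medium (1.53, SE 0.22, adjusted p = 6.8e-06), and Hoxb1, an early retinoic acid target, at 65.2 and 59.8 CPM without 8Br-cAMP, against 27.0 and 31.7 CPM in full medium (1.09, SE 0.21, adjusted p = 0.00051). Both were higher in each library without the analog. Msx1, a homeobox factor downstream of BMP, stood at 37.1 and 32.1 CPM without 8Br-cAMP, against 9.79 and 10.2 CPM in full medium (1.79, SE 0.18, adjusted p = 3.79e-09). Zic1, a zinc finger factor of the neural plate and mesoderm, stood at 11.9 and 12.9 CPM without 8Br-cAMP, against 3.21 and 3.00 CPM in full medium (2.00, SE 0.29, adjusted p = 7.01e-06). Mixl1, a homeobox gene of the primitive streak, stood at 6.79 and 8.13 CPM without 8Br-cAMP, against 2.61 and 3.00 CPM in full medium (1.41, SE 0.30, adjusted p = 0.00156). Of 15 tested streak and mesoderm genes 2 rose (T and Mixl1) and none fell, with a median of 0.29, where 0.643% of all genes tested rose. Evx1os, the antisense neighbour of Evx1, rose as well (2.11), and since the strand setting of the counting is not given, its reads cannot be told apart from those of Evx1 where they overlap. Hoxb1 was not called without library 1 of S2 in full medium (0.965, adjusted p = 0.0316).

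Dnmt3l (chr10:78041947-78063622, plus strand), the cofactor that guides de novo DNA methylation in the germline, stood at 45.2 and 44.0 CPM without 8Br-cAMP, against 11.1 and 10.0 CPM in full medium, a 4.22-fold higher level (2.08, SE 0.15, adjusted p = 4e-12). The 3 other S2 media gave 8.55 and 12.1 CPM without Birabresib, 40.0 and 45.2 CPM without CHIR-99021 and 22.7 and 18.9 CPM without CD1530. The level without 8Br-cAMP was thus close to that without CHIR-99021. It was the only one of 11 DNA methylation genes to be called. The rest of the 15 risen genes, Pcdh18, Lmo2, Sema3e, Tnc and Nedd9 among them, had log2 fold changes from 1.49 (Nedd9) to 1.93 (Pcdh18). Both libraries without 8Br-cAMP lay above all of the other 8 S2 libraries in 7 of these 15 genes and in 69 of all 161 risen genes. Of all genes tested 4.37% showed this order, and nothing is read from the excess for the same reason.

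Most genes of the naive pluripotency network were lower without the analog, few of them past the fold threshold. Of 22 core and naive pluripotency genes, all tested, 4 fell (Klf4, Tbx3, Prdm14 and Tcl1) and 2 rose (Lin28a and Utf1), and the median was −0.55. At any fold, 14 passed the adjusted p downward and 2 upward, where 4.38% of all genes tested passed downward. Utf1 lay just past both thresholds and did not keep its call under every alternative. Prdm14, which keeps naive cells from drifting to the primed state, stood at 5.09 and 6.46 CPM without 8Br-cAMP, against 16.6 and 17.6 CPM in full medium (−1.55, SE 0.22, adjusted p = 4.45e-06). Klf4, a reprogramming factor, stood at 69.2 and 71.9 CPM without 8Br-cAMP, against 145 and 150.1 CPM in full medium (−1.06, SE 0.22, adjusted p = 0.00106). Tbx3 stood at 203 and 222 CPM without 8Br-cAMP, against 409 and 440.3 CPM in full medium and lay on the fold threshold (−1.001, SE 0.16, adjusted p = 2.41e-05). The groups were apart in these 3. Tbx3 was not called without library 2 of S2 in full medium (−0.959, adjusted p = 0.00113) or library 1 of S2 without 8Br-cAMP (−0.950, adjusted p = 0.00292). It was lost as well with RLE factors (−0.965), in DESeq2 (−0.965) and in fits to the S2 libraries (−0.983) or the 4 libraries alone (−0.987).

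The central factors moved little. Nanog stood at 302 and 313 CPM without 8Br-cAMP, against 479 and 451 CPM in full medium and passed the adjusted p alone (−0.60, SE 0.10, adjusted p = 0.000118). Pou5f1, which encodes OCT4, stood at 161 and 184 CPM without 8Br-cAMP, against 217 and 208 CPM in full medium (−0.30, SE 0.14, adjusted p = 0.24), and Sox2 at 273 and 296 CPM without 8Br-cAMP, against 294 and 291 CPM in full medium (−0.04, SE 0.09, adjusted p = 0.917). Neither of these passed, and the aggregates of both groups still expressed all 3 markers. Lin28a, an RNA-binding protein that blocks let-7 maturation, rose, at 192 and 198 CPM without 8Br-cAMP, against 85.2 and 87.0 CPM in full medium (1.18, SE 0.10, adjusted p = 4.51e-10). Otx2, a factor of the primed epiblast and anterior brain, fell, at 1.02 and 1.00 CPM without 8Br-cAMP, against 3.44 and 4.24 CPM in full medium (−1.92, SE 0.20, adjusted p = 1.05e-08). Of 37 tested genes of the 2-cell-like state 1 fell (Dppa3, −1.42 ± 0.27) and the median was −0.47. Zscan4c, the marker of that state, stood at 27.5 and 23.1 CPM without 8Br-cAMP, against 31.8 and 34.5 CPM in full medium (−0.39, SE 0.14, adjusted p = 0.111) and did not pass.

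Some genes of the blastocyst's outer epithelium fell, Krt8, Krt18, Cldn4 and Aqp3 among them. Krt8 and Krt18 encode the partner keratins of simple epithelia. Krt8 stood at 52.6 and 49.1 CPM without 8Br-cAMP, against 134 and 121 CPM in full medium (−1.33, SE 0.14, adjusted p = 8.82e-09). Krt18 stood at 42.2 and 41.0 CPM without 8Br-cAMP, against 108 and 102 CPM in full medium (−1.34, SE 0.12, adjusted p = 1.08e-09). Cldn4, a claudin of tight junctions, stood at 61.4 and 60.1 CPM without 8Br-cAMP, against 156 and 149.9 CPM in full medium (−1.33, SE 0.12, adjusted p = 6.71e-10). Aqp3, a water and glycerol channel of blastocyst epithelium, stood at 59.8 and 60.4 CPM without 8Br-cAMP, against 210.1 and 203 CPM in full medium (−1.78, SE 0.19, adjusted p = 1.97e-08). In each of these 4 the libraries without 8Br-cAMP held less than the libraries in full medium, with no overlap.

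Of 23 tested junction and cavity genes 5 fell, among them Cldn4, Cldn7, Aqp3 and the scarce Aqp8, none rose, and the median was −0.35. At any fold, 11 of them passed downward and 1 upward, where 4.38% of all genes tested passed downward and 1.64% upward. Of 28 tested trophectoderm and trophoblast genes 4 fell (Krt8, Krt18, Plac1 and Cyp11a1), none rose, and the median was −0.32. Krt8 and Krt18 kept their call under every alternative, but Plac1 and Cyp11a1 did not. With the fold threshold, 1.28% of all genes tested fell. The factors that define that lineage did not pass: Gata3 stood at 1.91 and 1.79 CPM without 8Br-cAMP, against 2.46 and 2.48 CPM in full medium (−0.42 ± 0.27), and Elf5 was near 0 in all 4 libraries, at most 0.110 CPM. Cdx2, as given above, passed the adjusted p upward.

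Of 30 primitive and visceral endoderm genes, all tested, 3 fell, none rose, and the median was −0.29, where 1.28% of all genes tested fell. Gata6, the factor that starts the endoderm programme, stood at 6.90 and 6.52 CPM without 8Br-cAMP, against 17.8 and 21.0 CPM in full medium (−1.53, SE 0.14, adjusted p = 1.29e-09). Sox7, a later factor of the same lineage, stood at 0.341 and 0.482 CPM without 8Br-cAMP, against 2.72 and 1.98 CPM in full medium (−2.45, SE 0.32, adjusted p = 1.02e-06). Lama1, a laminin chain of the basement membrane, stood at 69.1 and 82.1 CPM without 8Br-cAMP, against 163 and 152 CPM in full medium (−1.06, SE 0.18, adjusted p = 7.96e-05). The groups were apart in these 3. Gata4 stood at 2.18 and 2.97 CPM without 8Br-cAMP, against 4.12 and 3.27 CPM in full medium (−0.49 ± 0.21) and did not pass, nor did Sox17, at 2.73 and 3.29 CPM without 8Br-cAMP, against 3.52 and 4.57 CPM in full medium (−0.41 ± 0.20). Lama1 was not called without library 1 of S2 without 8Br-cAMP (−0.953, adjusted p = 0.0101).

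**Figure D3:**
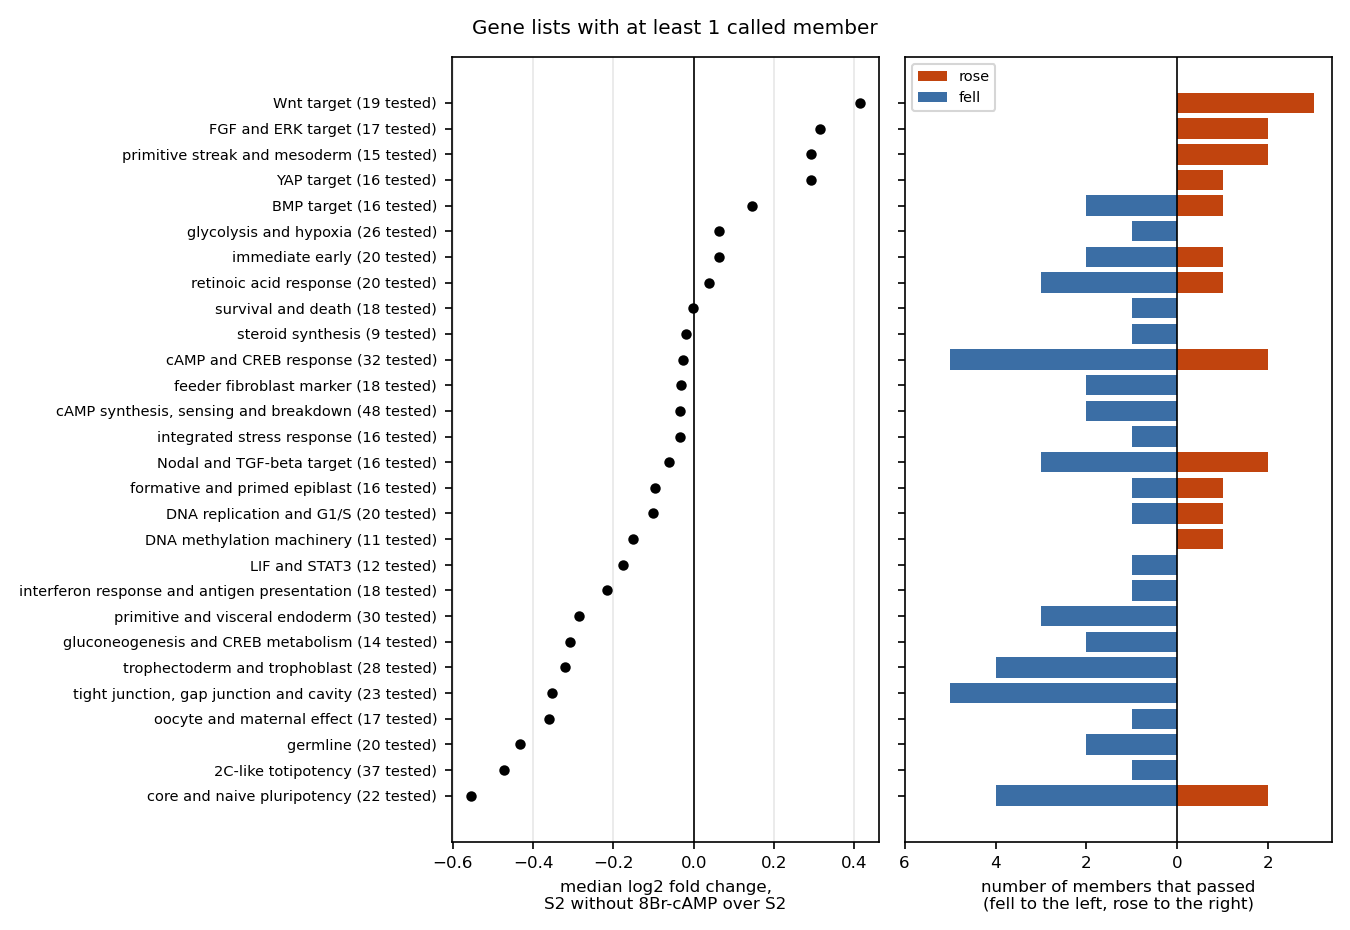
Median log2 fold change (left, S2 without 8Br-cAMP over S2) and number of members that rose (orange) or fell (blue) for the 28 of 34 gene lists with at least 1 called member, in order of the median. Wnt targets are at the top with a median of 0.41, and core and naive pluripotency genes at the bottom with −0.55.

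Retinoic acid genes did not move one way. Of 20 tested, 3 fell (Cyp26b1, Crabp2 and Tgm2), 1 rose (Hoxb1) and the median was 0.04. Of all genes tested 1.28% fell and 0.643% rose. Cyp26b1, an enzyme that breaks down retinoic acid, stood at 0.649 and 0.963 CPM without 8Br-cAMP, against 4.58 and 5.67 CPM in full medium (−2.62, SE 0.35, adjusted p = 2.26e-06). Crabp2, which carries retinoic acid to its receptor, stood at 6.35 and 7.69 CPM without 8Br-cAMP, against 15.1 and 15.0 CPM in full medium (−1.09, SE 0.29, adjusted p = 0.0138). In Tgm2 (−1.46 ± 0.26), 21.8% of the exonic bases lie in other genes, which makes its count uncertain. Crabp2 was not called without library 1 of S2 in full medium (−1.096, adjusted p = 0.0709), library 2 of S2 in full medium (−1.110, adjusted p = 0.0623), library 1 of S2 without 8Br-cAMP (−0.981, adjusted p = 0.159) or library 2 of S2 without 8Br-cAMP (−1.254, adjusted p = 0.0554).

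Ligands of the TGF-beta family did not either. Tgfb1 rose, at 16.7 and 14.7 CPM without 8Br-cAMP, against 7.90 and 7.46 CPM in full medium (1.03, SE 0.16, adjusted p = 1.97e-05). Tgfb2 fell, at 1.02 and 2.01 CPM without 8Br-cAMP, against 3.81 and 3.52 CPM in full medium (−1.23, SE 0.33, adjusted p = 0.0166), and so did Inhba, the activin A subunit, at 4.03 and 4.28 CPM without 8Br-cAMP, against 10.7 and 10.0 CPM in full medium (−1.32, SE 0.32, adjusted p = 0.00854). On the Nodal and TGF-beta list of 16, the median was −0.06, with 2 members risen and 3 fallen. Tgfb1 was not called without library 2 of S2 in full medium (0.975, adjusted p = 0.00216) or library 1 of S2 without 8Br-cAMP (0.925, adjusted p = 0.00175). Tgfb2 was not called without library 1 of S2 in full medium (−1.188, adjusted p = 0.101), library 2 of S2 in full medium (−1.300, adjusted p = 0.0568) or library 1 of S2 without 8Br-cAMP (−0.881, adjusted p = 0.295). Inhba was not called without library 1 of S2 in full medium (−1.279, adjusted p = 0.064), library 1 of S2 without 8Br-cAMP (−1.290, adjusted p = 0.0938) or library 2 of S2 without 8Br-cAMP (−1.373, adjusted p = 0.0752).

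Spry4, a feedback inhibitor of FGF signalling, rose, at 33.6 and 37.1 CPM without 8Br-cAMP, against 16.9 and 14.1 CPM in full medium (1.19, SE 0.16, adjusted p = 3.03e-06). Of 17 tested FGF and ERK targets 2 rose (Spry4 and Fos), none fell, and the median was 0.32, where 0.643% of all genes tested rose. Of 16 YAP targets, Ccn2 alone rose (1.16 ± 0.16), and 23.2% of its exonic bases lie in another gene.

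A pair of D-type cyclins moved in opposite directions. Ccnd3 stood at 191 and 195 CPM without 8Br-cAMP, against 393 and 403 CPM in full medium (−1.04, SE 0.12, adjusted p = 1.8e-07). Ccnd2 stood at 54.1 and 60.3 CPM without 8Br-cAMP, against 23.7 and 26.5 CPM in full medium (1.19, SE 0.17, adjusted p = 4.69e-06). No gene of the 18 on the mitotic list was called, and its median was 0.11. In metabolism, Cpt1a, which admits fatty acids to the mitochondrion, fell, at 41.8 and 47.8 CPM without 8Br-cAMP, against 136 and 137 CPM in full medium (−1.60, SE 0.10, adjusted p = 1.56e-13). Fbp2, a fructose-bisphosphatase, fell too, at 1.09 and 1.83 CPM without 8Br-cAMP, against 4.12 and 4.02 CPM in full medium (−1.44, SE 0.28, adjusted p = 0.000567). These were the only called members of the 14 on the gluconeogenesis list, whose median was −0.31, while Pck1, a classical cAMP target of liver, was at 0 in all 4 libraries. None of 22 genes of cholesterol and fatty acid synthesis and none of 17 p53 targets was called.

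Markers of other cell types were read beside these groups. Of 18 feeder fibroblast markers 2 fell (Col3a1 and Twist2), none rose, and S100a4 was at 0 in all 4 libraries. Their summed level was 2701 and 2959 CPM without 8Br-cAMP, against 3711 and 3870 CPM in full medium, and Fn1, which the embryo also makes, accounted for 2312 and 2581 CPM of the sums without 8Br-cAMP and 3314 and 3491 CPM of those in full medium. Col1a1, the main fibroblast collagen, stood at 101 and 105 CPM without 8Br-cAMP, against 96.2 and 101 CPM in full medium (0.07 ± 0.21). Whether a difference in feeder cells bears on any gene group was not tested. Neural markers summed to 44.4 and 50.1 CPM without 8Br-cAMP, against 49.2 and 47.7 CPM in full medium, and none of the 12 was called. Blood and endothelial markers summed to 82.8 and 93.7 CPM without 8Br-cAMP, against 96.6 and 91.2 CPM in full medium, with none of 9 tested called.

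S2 without 8Br-cAMP was next set against the mean of S2 without Birabresib, S2 without CHIR-99021 and S2 without CD1530, each with 2 libraries. A single extreme omission can move that mean. The test alone thus cannot say whether a level belonged to the loss of 8Br-cAMP or to the loss of any agent. Here 756 genes were called (3.02% of all genes tested), 231 of them higher (0.922%) and 525 lower (2.1%). The 2 libraries without 8Br-cAMP serve in this test and in the main one, so the tests are not independent. Nr4a1, at 30.8 and 32.3 CPM without 8Br-cAMP, stood at 89.0 and 94.9 CPM without Birabresib, 105 and 119 CPM without CHIR-99021 and 114 and 118 CPM without CD1530 (−1.75, SE 0.13, adjusted p = 1.46e-12). Sik1 stood at 91.7 and 105 CPM without Birabresib, 182 and 193 CPM without CHIR-99021 and 91.6 and 79.3 CPM without CD1530 (−1.51, SE 0.17, adjusted p = 1.49e-08), and Pde4d at 26.3 and 26.8 CPM without Birabresib, 60.9 and 63.3 CPM without CHIR-99021 and 36.8 and 35.7 CPM without CD1530 (−1.76, SE 0.12, adjusted p = 7.8e-14). Nr4a1, Sik1 and Pde4d were thus lower without 8Br-cAMP than without any other agent. Bcl2 differed likewise (−2.98, SE 0.13, adjusted p = 8.24e-19).

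For other genes another omission gave a like or more extreme level. Aqp3, at 59.8 and 60.4 CPM without 8Br-cAMP, stood at 187 and 214 CPM without Birabresib, 194 and 217 CPM without CHIR-99021 and 48.1 and 47.9 CPM without CD1530. Lef1 stood at 17.4 and 17.2 CPM without Birabresib, 1.66 and 1.38 CPM without CHIR-99021 and 41.0 and 40.9 CPM without CD1530, so its level without 8Br-cAMP was the highest of the S2 media and that without CHIR-99021 the lowest. Lef1 was called in this test (2.32, SE 0.09, adjusted p = 3.97e-20), and Msx1 too, at 7.83 and 10.1 CPM without Birabresib, 2.51 and 2.71 CPM without CHIR-99021 and 5.56 and 6.92 CPM without CD1530 (2.71, SE 0.13, adjusted p = 5.43e-18). Tnc, which had risen against full medium, did not pass against the other omissions (−0.16, SE 0.14, adjusted p = 0.607), and neither did Fos (0.51, SE 0.22, adjusted p = 0.163). The largest differences by the naming rule were in Evx1os (4.07), Dkk4 (3.20) and Sp5 (2.87) among the higher genes. Among the lower ones they were in Il11 (−3.77), Pappa (−3.76) and Cyp26b1 (−3.68). Over the alternatives the value for Il11 ran from −10.223 to −3.002 and that for Pappa from −4.602 to −3.388, so their size is uncertain. Evx1os had no count without CHIR-99021, so its value depends on the prior count. Its mean was higher without CD1530 (9.66 CPM) than without 8Br-cAMP (6.07 CPM). Dkk4 was near 0 without CHIR-99021, at a mean of 0.0555 CPM. Cyp26b1 had means of 71.2 CPM without CHIR-99021, 1.02 CPM without CD1530 and 0.806 CPM without 8Br-cAMP.

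**Figure D4:**
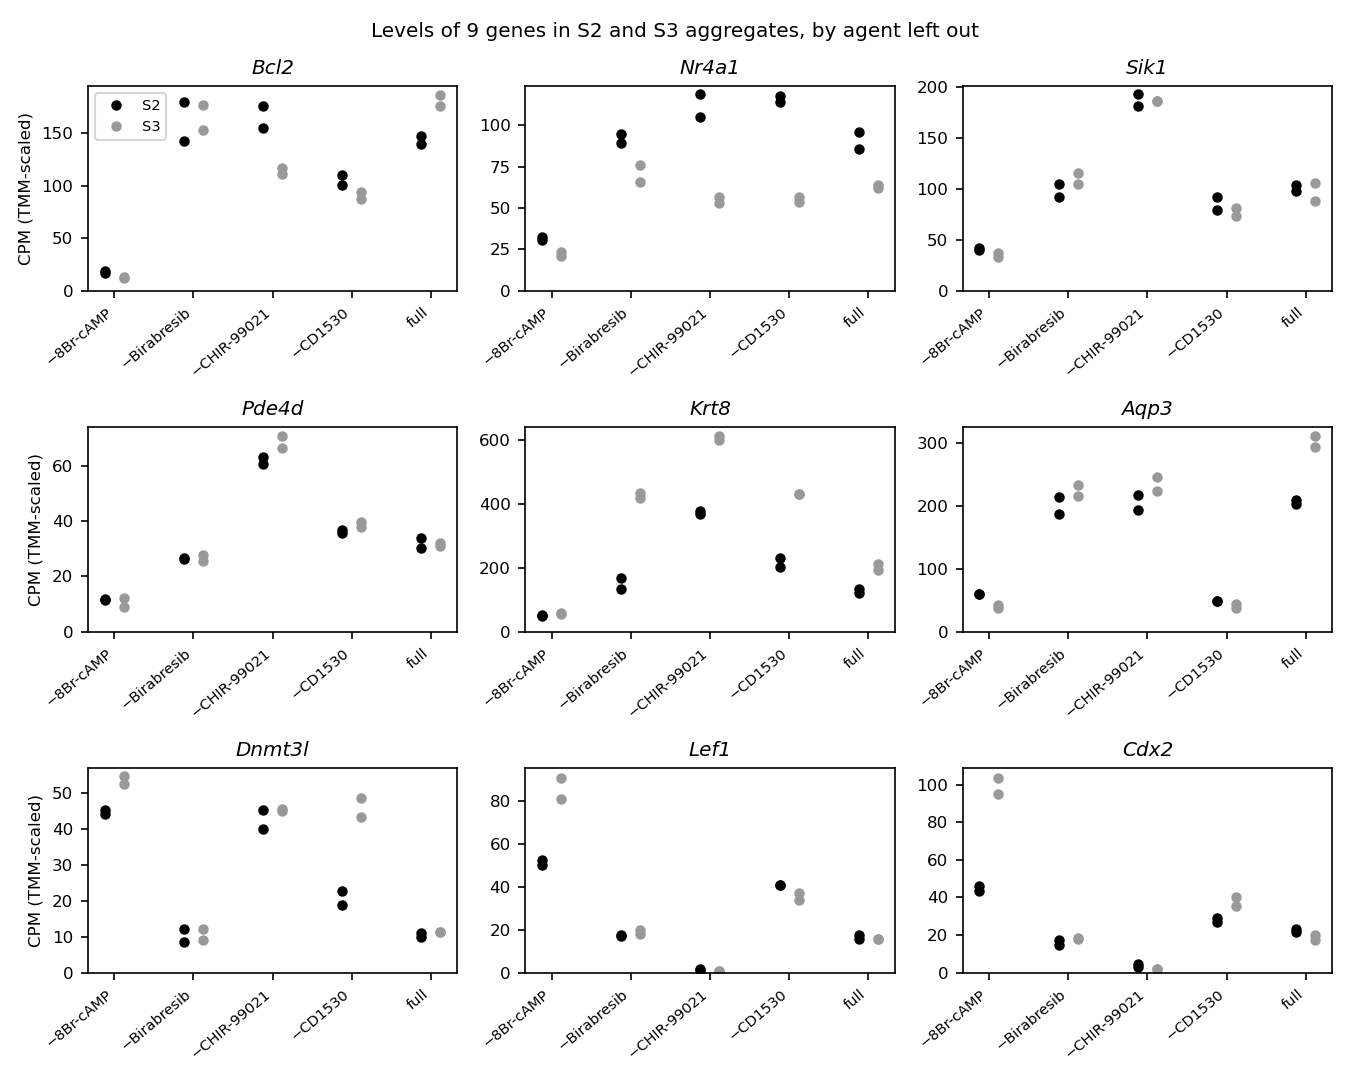
Levels of 9 genes in the S2 (black) and S3 (grey) libraries by the agent left out of the medium, with full medium at the right. Each point is 1 library and the vertical axis is CPM from 0; Bcl2 lies below 20 CPM only where 8Br-cAMP was left out, while Aqp3 is also low without CD1530.

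The same omission was made again at the next stage. S3 without 8Br-cAMP (2 libraries) and S3 in full medium (2 libraries) were S2 aggregates kept 1 more day in the medium without or with the analog, and they share no library with the S2 groups. The labels do not say in which medium those S2 aggregates had been kept. Whether the analog was absent for that day alone or for longer is therefore not known. The 2 S3 libraries in full medium stood apart in 1 respect: mitochondrial genes took 0.903% and 0.775% of their counts, against 1.89% to 3.43% in the other 18 libraries of S2 and S3. The mitochondrial gene mt-Nd4 stood at 1897 and 1866 CPM without 8Br-cAMP, against 249 and 208 CPM in full medium at S3. The part of this feature in the S3 results was not tested. At S3, 1660 genes were called (6.63% of all genes tested), of which 709 rose (2.83%) and 951 fell (3.8%).

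Of the 320 genes that fell at S2, 211 fell at S3, which is 65.9% of the S2 list and 22.2% of the S3 list, and 1 rose. Of the 161 that rose at S2, 73 rose at S3, which is 45.3% of the S2 list and 10.3% of the S3 list, and 1 fell. The median log2 fold change of the fallen genes was −1.48 at S2 and −1.52 at S3, and that of the risen genes was 1.49 at S2 and 0.95 at S3. Over the 11121 genes whose mean reached 5 CPM at either stage, the log2 fold changes of the 2 stages correlated with r = 0.627, and over all 25056 genes with r = 0.118. These are descriptions across genes, which are not independent replicates.

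Bcl2 stood at 13.1 and 12.3 CPM without 8Br-cAMP, against 186 and 176 CPM in full medium at S3 (−3.83, SE 0.15, adjusted p = 5.3e-20). Nr4a1 stood at 21.0 and 23.2 CPM without 8Br-cAMP, against 63.7 and 61.9 CPM in full medium (−1.51, SE 0.15, adjusted p = 5.29e-10), and Pde4d at 8.99 and 12.3 CPM without 8Br-cAMP, against 32.1 and 30.9 CPM in full medium (−1.57, SE 0.13, adjusted p = 1.26e-11). These genes fell at both stages. Lef1 stood at 90.8 and 80.8 CPM without 8Br-cAMP, against 15.7 and 15.6 CPM in full medium (2.45, SE 0.12, adjusted p = 9.54e-18), and Dnmt3l at 52.3 and 54.6 CPM without 8Br-cAMP, against 11.4 and 11.4 CPM in full medium (2.23, SE 0.15, adjusted p = 4.84e-14). Both rose at both stages. Csf3r, the receptor for granulocyte colony-stimulating factor, fell at S3, at 0.407 and 0.380 CPM without 8Br-cAMP, against 19.1 and 17.3 CPM in full medium (−5.51, SE 0.37, adjusted p = 5.52e-14). At S2 it had fallen too, at 0.171 and 0.181 CPM without 8Br-cAMP, against 3.35 and 3.08 CPM in full medium (−4.16, SE 0.43, adjusted p = 1.14e-08).

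**Figure D5:**
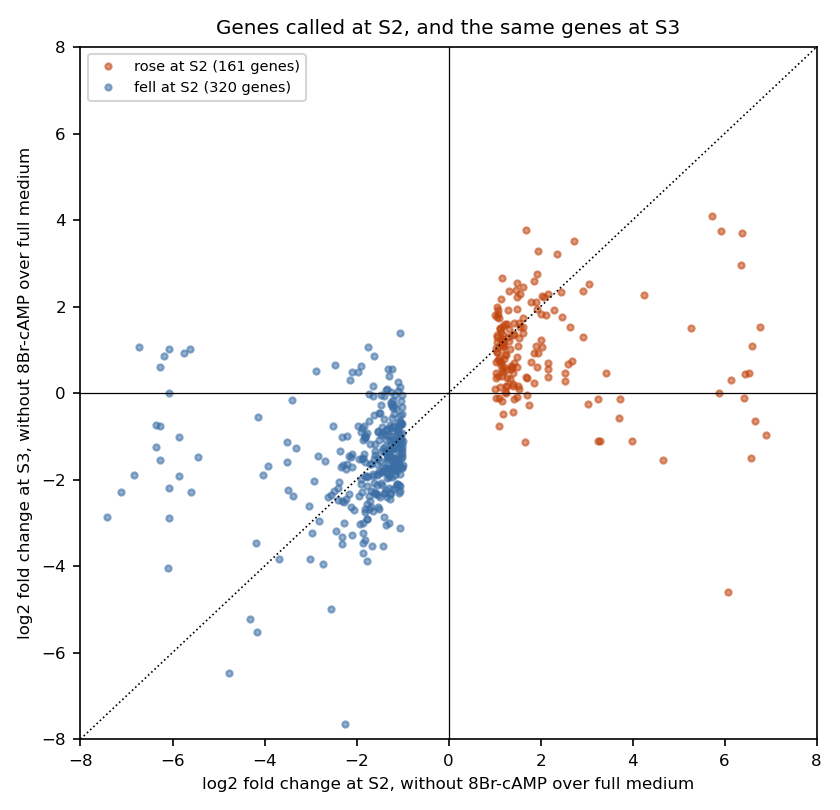
Log2 fold change at S3 (vertical) against that at S2 (horizontal), without 8Br-cAMP over full medium, for the 161 genes that rose (orange) and the 320 that fell (blue) at S2; the dotted line marks equal responses. Most points lie in the same quadrant at both stages (136 of the risen and 294 of the fallen genes), and points beyond 5 in size at S2 are genes with no count in a group.

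The difference between the 2 responses was tested as such. It was called for 477 genes (1.9% of all genes tested), in 186 (0.742%) with a higher and in 291 (1.16%) with a lower value at S2. Among the genes called at S2, the difference was called for 40 of those that fell and for 21 of those that rose. Of the 40, 20 had a larger negative log2 fold change at S3, and 20 had a smaller one or one of the other sign. Of the 21, 4 had a larger positive log2 fold change at S3, and 17 had a smaller one or one of the other sign. The epithelial genes Cldn4 and Aqp3 fell further at S3. Cldn4 stood there at 60.2 and 64.8 CPM without 8Br-cAMP, against 336 and 320.1 CPM in full medium (−2.39 ± 0.12, with a difference of 1.06, SE 0.17, adjusted p = 8.23e-05). Aqp3 stood there at 37.0 and 43.0 CPM without 8Br-cAMP, against 312 and 294 CPM in full medium (−2.92 ± 0.20, with a difference of 1.14, SE 0.26, adjusted p = 0.00588). The difference for Cldn4 was not called without library 1 of S3 without 8Br-cAMP (1.000, adjusted p = 0.00149).

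Pou5f1 differed between the stages. It did not pass at S2 (−0.30 ± 0.14) and fell at S3, at 95.2 and 99.1 CPM without 8Br-cAMP, against 252 and 241 CPM in full medium (−1.34 ± 0.14, with a difference of 1.04, SE 0.19, adjusted p = 0.000595), and 14.1% of its exonic bases lie in another gene. The endoderm factors Gata4 and Sox17 likewise did not pass at S2 and fell at S3. Gata4 stood there at 4.07 and 3.71 CPM without 8Br-cAMP, against 15.0 and 14.3 CPM in full medium (−1.91 ± 0.18, with a difference of 1.42, SE 0.27, adjusted p = 0.00104). Sox17 stood there at 6.35 and 6.37 CPM without 8Br-cAMP, against 24.3 and 22.6 CPM in full medium (−1.88 ± 0.18, with a difference of 1.47, SE 0.27, adjusted p = 0.000499). Cdx2 rose at S3, at 95.0 and 104 CPM without 8Br-cAMP, against 20.0 and 17.1 CPM in full medium (2.42 ± 0.29, with a difference of −1.42, SE 0.40, adjusted p = 0.0281). Fos behaved otherwise: it had risen at S2 and stood at 37.8 and 33.5 CPM without 8Br-cAMP, against 34.3 and 32.7 CPM in full medium at S3 (0.09 ± 0.25, with a difference of 1.43, SE 0.39, adjusted p = 0.023). Ackr3 was nearer to its full-medium level at S3 and lay just under the fold threshold, at 7.36 and 7.07 CPM without 8Br-cAMP, against 14.7 and 14.1 CPM in full medium (−0.998 ± 0.16, with a difference of −1.22, SE 0.22, adjusted p = 0.000607). It was called at S3 with RLE factors (−1.004), in DESeq2, with halved counts, in both fits to fewer libraries, with the crossed replicate numbers as a block, without library 2 of S3 in full medium (−1.022) and without library 1 of S3 without 8Br-cAMP (−1.030). Igfbp5, which had fallen at S2, did not pass at S3, at 6.71 and 4.27 CPM without 8Br-cAMP, against 4.61 and 3.26 CPM in full medium (0.50 ± 0.24, with a difference of −2.60, SE 0.35, adjusted p = 8.2e-06). The difference for Pou5f1 was not called without library 2 of S2 without 8Br-cAMP (0.932, adjusted p = 0.00827). The difference for Cdx2 was not called without any one of the 8 libraries (adjusted p from 0.0507 to 0.12) or in DESeq2 (adjusted p = 0.0625). That for Fos was not called without any one of 7 of them (adjusted p from 0.0503 to 0.107), the exception being library 1 of S3 without 8Br-cAMP.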

How the data were processed

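An RNeasy kit, oligo-dT capture and paired reads from a HiSeq machine gave the libraries, per the labels' protocols. Trimming used Trimmomatic 0.39, alignment to mm10 used STAR 2.7.10b and counting used featureCounts 2.0.6, per the submitters' processing notes. The sources used here name no annotation or strand setting, nor how mates were counted. The file the authors deposited holds raw counts of 55291 genes in 52 libraries. The totals of the S2 and S3 libraries lay between 28899605 and 57895915. In the 4 S2 libraries compared, even values made up 68.8% to 71.9% of all counts between 1 and 10.

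Genes were kept with filterByExpr of edgeR 4.0.16 (25056), scaled with TMM, and fitted in 1 quasi-likelihood model with a mean for each of 26 groups (limma 3.58.1, R 4.3.3). The 4 comparisons were contrasts of these means, and Benjamini-Hochberg adjustment ran over all genes tested. The SE is the size of the log2 fold change over the root of F. Named genes were the 15 and 15 largest called changes at 5 CPM or more without predicted genes, the cAMP and CREB list, up to 4 called members of each of the other 33 lists, 5 and 5 in each further comparison, and fixed markers; Utf1, Axin2, Fn1, Col1a1, Elf5, Prkaca, Prkar1a, Creb1, Aqp8, and the choice among lists, came after the values were seen. The members and lists were chosen with earlier results of these data known. Positions are GENCODE M21 (53292 symbols matched) and promoters RefSeq.

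Some called genes that the rule would name are not reported here. Alternatives were RLE factors, no filter, DESeq2 1.42.0, fewer libraries, a replicate block, no fold threshold, halved counts, the newer quasi-likelihood fit, and each library left out.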

Additional observations from a re-analysis of the deposited data

Results flagged for a closer look

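The response to leaving out 8Br-cAMP differed between S2 and S3 for 477 genes by the test of the difference itself. Among the genes named in the text, the log2 fold change at S2 minus that at S3 was 1.04 for Pou5f1, 1.42 for Gata4, 1.47 for Sox17, 1.06 for Cldn4, 1.14 for Aqp3 and 1.43 for Fos. It was −1.42 for Cdx2, −1.22 for Ackr3 and −2.60 for Igfbp5. The largest such values by the naming rule were −3.13 for mt-Nd4, −2.72 for mt-Nd2, −2.78 for mt-Tp and −2.58 for Ifitm2, and on the other side 3.75 for Ppp2r3d, 2.60 for Pth1r, 2.25 for Foxa2, 2.20 for Il34 and 2.11 for Fbp2. In the 3 mitochondrial genes the S3 libraries in full medium were the ones apart: mt-Nd2 stood at 2044 and 2032 CPM without 8Br-cAMP, against 345 and 284 CPM in full medium at S3 and at 2326 and 2283 CPM without 8Br-cAMP, against 2521 and 2157 CPM in full medium at S2. Of the exonic bases of Ifitm2, 40.9% lie in another gene. The difference for Il34 was not called without library 2 of S3 without 8Br-cAMP (1.775, adjusted p = 0.0529). The difference for Fbp2 was not called without library 2 of S2 without 8Br-cAMP (1.636, adjusted p = 0.0549). That for Ppp2r3d was not called without any one of 7 of the 8 libraries (adjusted p from 0.0626 to 0.196), the exception being library 2 of S2 in full medium.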

How the results depend on the processing

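Of 129 gene values in the text, 105 kept their side of the thresholds under every alternative that gave a value, 24 did not, and none reversed. Without the fold threshold 1509 genes were called for S2 without 8Br-cAMP against full medium, 2482 against the other omissions, 5213 at S3 and 1359 for the difference between stages, since a criterion was dropped. With the compared groups fitted alone the difference between stages was called for 820 genes, and the cause was not tested. The remaining alternatives moved each count by less than 1.5 times. With a replicate block the counts were 471, 759, 1628 and 467, and no named gene changed its call. The labels give the numbers no meaning, and the deviations of same-numbered libraries of S2 without 8Br-cAMP and S2 in full medium correlated at 0.0465, so in that comparison they share only a number. Among the other omissions, same-numbered libraries without Birabresib and without CHIR-99021 correlated at 0.657. At S3 that correlation was −0.110, and the crossed block, chosen after seeing the data, called 1617 genes and put Ackr3 past the fold threshold (−1.008). Leaving out 1 library at a time gave 344 to 407, 506 to 855, 1282 to 1394 and 327 to 404 calls, where the lone library of a group is assumed to vary like the other groups. The full CRE was held by 3.9% of fallen genes with a promoter and by 2.61% of tested ones. With the short site also allowed the shares were 21.65% and 26.37%, both larger as the motif is shorter. Depth and 2 libraries a group limit the precision at low levels: Pde4b, below 1 CPM in all 4 libraries, had an SE of 0.62.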
